A study of Mus musculus with 12 samples.

Results

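The response of IL-4 complex macrophages to SPARC was described from 6 libraries of the 12 in the series: the 3 wells labelled as SPARC treated (IL4-1-SP, IL4-2-SP and IL4-3-SP) against the 3 labelled as untreated (IL4-1-No, IL4-2-No and IL4-3-No). The members are these 6 libraries, chosen by their labels, and each of the 15232 genes with enough counts was tested in them. The other 6 libraries are thioglycollate-elicited (TG) peritoneal macrophages with and without SPARC, and serve here only to estimate the spread and to set a value beside the IL-4 complex response. All mice were of the C57BL/6 strain. The IL-4 complex mice received IL-4 (5 µg) bound to an IL-4 antibody (25 µg) into the peritoneum in 2 injections given 2 days apart, with collection 2 days after the last; the TG mice received 1 injection of thioglycollate 4 days before collection. Peritoneal cells were washed out with 7 ml of PBS, 3000000 cells were seeded per well of a 24-well plate, and after 2 h the wells were washed so that attached cells remained. These were left untreated or given 20 µg/ml SPARC for 24 h, and poly(A) RNA was sequenced. The cultures were therefore adherent peritoneal cells and not a sorted population, every IL-4 complex library carries the same in vivo IL-4 exposure, and no IL-4 was named in the culture step. The labels read here name no SPARC preparation, endotoxin level or vehicle control.

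SPARC is a secreted, collagen-binding matricellular glycoprotein. IL-4 complex injection makes resident peritoneal macrophages proliferate and take up the alternatively activated state, in which IL-4 receptor signalling through STAT6 turns on genes such as Arg1, Chil3, Retnla and Mrc1. Tissue macrophages of the peritoneal cavity are known for clearing dying cells, for the receptors and bridging molecules that this takes, and for making complement components. Macrophages that meet an inflammatory or interferon stimulus are known to change their metabolism and to lower many genes of the resident state, which is why genes that fell are given as much room here as genes that rose.

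The labelled cell type was checked first. All 8 macrophage markers were measured, in CPM (the share of a library's counts on a common scale, with TMM library sizes). They summed to 20528 to 27802 CPM in the untreated and 12892 to 18779 in the SPARC libraries. Lyz2 was the largest part of this sum, at 11678.5 to 20372 CPM untreated and 4444 to 9577 with SPARC. By sign, 4 of the 8 markers changed up and 4 down. Of the 8, Fcgr1 passed the test as higher and Lyz2 and Mertk as lower. T cell markers summed to at most 2.47 CPM, natural killer markers to at most 1.55 and erythroid markers to at most 4.29 in any IL4c library. B cell markers summed to 346 to 545 CPM untreated and 231 to 288 with SPARC, of which Blnk, also expressed by macrophages, made up 138 to 190 CPM; 1 of 11 tested passed as lower, and 11 of 11 with the replicate block introduced below. Neutrophil markers summed to 130 to 261 CPM untreated and 140 to 213 with SPARC, and 2 of the 3 tested were higher. Csf3r made up most of that sum, at 120 to 254 and 98.9 to 183 CPM. Dendritic cell markers summed to 13.9 to 41.7 against 8.23 to 17.6 CPM. Of these, Cd209a stood at 5.01 to 26.6 and 0.185 to 0.334 CPM, and Ccr7 at 3.25 to 8.84 and 4.76 to 14.2. Monocyte or small macrophage markers summed to 379 to 606 against 373 to 485 CPM, with 2 of 11 tested higher and 1 lower. Itga4 was the largest part of these, at 322 to 518 and 194 to 240 CPM. Ly6c2 was at most 0.186 CPM untreated and stood at 0.607, 1.95 and 9.05 CPM with SPARC. Ms4a4c, of the same list, stood at 1.59, 1.57 and 0.825 CPM untreated and 26.4, 153 and 105 with SPARC. Eosinophil markers summed to 3.72 to 5.01 CPM untreated and 1.04 to 1.59 with SPARC, without overlap, and mast cell and basophil markers to 1.27 to 16.8 against 1.23 to 11.6. Epx, Mcpt8 and Lrrn4, of the eosinophil, basophil and mesothelium lists, had no count in any of the 6 libraries. Mesothelial and fibroblast markers rose as a sum from 6.84 to 17.9 CPM untreated to 60.5 to 112 CPM with SPARC. With SPARC that sum was nearly all Dcn, the collagen-binding proteoglycan decorin, at 5.29, 4.51 and 10.8 CPM untreated and 58.9, 108 and 97.1 with SPARC (log2 fold change 3.68 ± 0.86, adjusted p = 0.0112; 0.0544 without untreated 2). The part of these other cell types in the results was not tested, and in cultures of this kind fewer cells of a type and less RNA per cell cannot be told apart.

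The 6 IL4c libraries held 31501941 to 42288785 estimated counts each. On the first principal component, which carried 66.9% of the variance, the SPARC and the untreated libraries lay apart, and on the second (19.4%) both libraries numbered 3 lay apart from the rest, at 44.1 and 48.8 against −27.1 to −17.1. List counts without that number are given where they moved by more than 1.5 times. Libraries with the same number deviated from their group means together (correlations of 0.412, 0.342 and 0.610), so a fit with the number as a replicate block was run beside the fit without it. The labels give shared numbers but do not say that replicates came from separate animals, so a p-value measures only how far these samples spread, which may be technical. Library names are shortened below to SPARC 1, 2 and 3 and untreated 1, 2 and 3 for the IL4c libraries, and changes are log2 fold changes of SPARC against untreated with their standard error. Each p is from edgeR's quasi-likelihood test, adjusted by Benjamini and Hochberg over all 15232 genes, and a gene rose or fell where it was under 0.05. A named gene kept its call in every alternative fit unless the text gives a loss. Where a loss is given, further alternative fits not named may have lost the call as well.

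Of the 15232 genes tested, 2301 rose (15.1%) and 1936 fell (12.7%). At 2-fold or more, 1004 rose and 729 fell, and the median change over all genes was −0.001. The 3 SPARC and the 3 untreated libraries did not overlap for 2284 of the genes that rose and 1916 of those that fell, against 25.5% and 24.8% of all genes tested that did not overlap in those directions. With the replicate block the counts were 3474 (22.8%) and 3406 (22.4%), and without both libraries numbered 3 they were 1551 and 1128. Without both TG libraries numbered 1, which lay furthest from the others of their groups, they were 3362 and 3145. Calls were not evenly spread over expression levels: among the fifth of genes with the highest mean level 18.8% rose and 19.9% fell, and among the fifth with the lowest 6.76% and 6.63%. Genes that fell made up 24.1 to 26.6% of all counts in the untreated libraries and 12.7 to 14.2% in the SPARC libraries. Genes that rose made up 9.77 to 10.4% untreated and 21.8 to 23.2% with SPARC. These shares describe the genes the test chose. Among gene types, 2104 of 12835 protein-coding genes rose (16.4%) and 1731 fell (13.5%). Of 369 genes of the unsettled class TEC, 51 fell (13.8%), near the share of all genes, and 12 rose (3.25%), fewer than that share. Of 825 processed pseudogenes, 61 rose (7.39%) and 17 fell (2.06%). The shares of all genes tested, 15.1% higher and 12.7% lower, are the background for the gene lists that follow. In the fit without the block, the lists of alternative activation, resident macrophages, lectins and scavengers, coagulation, MHC class II, costimulation, the tricarboxylic acid cycle, nuclear oxidative phosphorylation, the cell cycle, immediate-early genes, matrix and ribosomes stayed below it or within 10 percentage points of it in both directions, and their counts are given as a description of the members. With the block, each of these lists except MHC class II and ribosomes went past the background of that fit by more than 10 percentage points in at least 1 direction, such as alternative activation with 14 of 31 lower, resident macrophages with 12 of 28 lower, costimulation with 9 of 20 higher and nuclear oxidative phosphorylation with 18 of 45 higher.

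**Figure D1:**
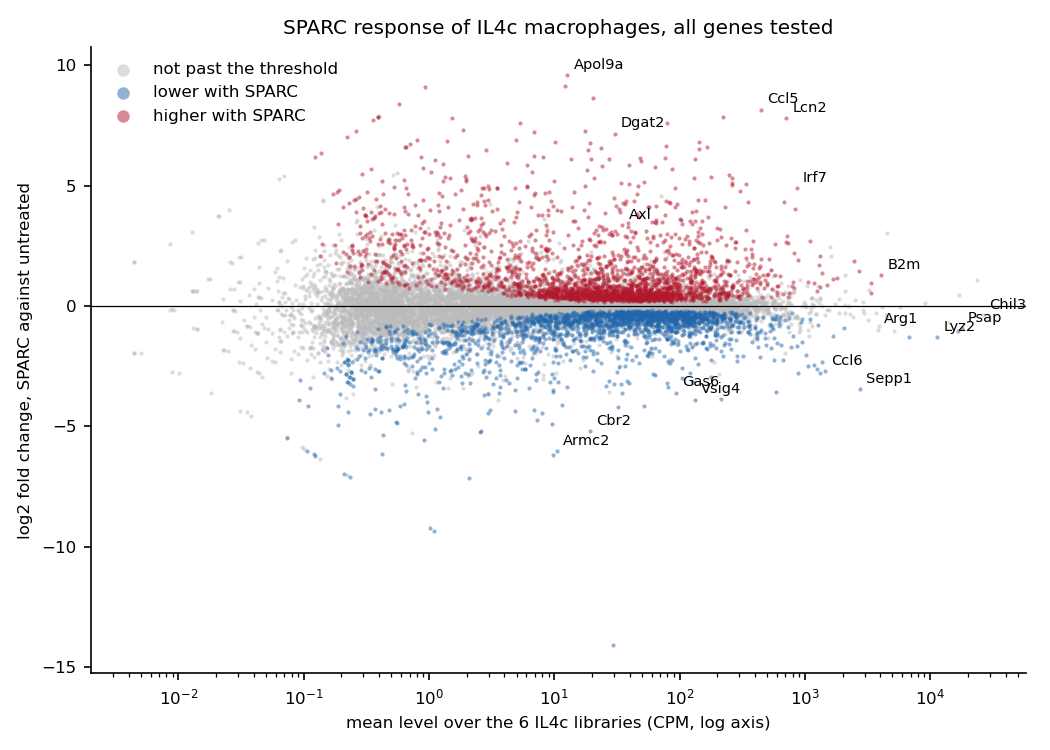
Log2 fold change of SPARC against untreated IL4c libraries (vertical axis) against the mean level over the 6 libraries (CPM, log horizontal axis) for each gene tested, with genes that rose in red and genes that fell in blue. The blue points reach far to the right, to Lyz2, Psap and Sepp1, and the lowest point, at −14.08, is Gm28439, an unprocessed pseudogene with no count in any of the 3 SPARC libraries, whose fitted change is not a measured fold.

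Genes averaging 10 CPM or more whose groups did not overlap were ranked by fold change, and among them Armc2, a gene best known from sperm flagella, fell by 6.02 ± 0.54 (adjusted p = 1.19e-04). It stood at 15.3, 25.3 and 21.6 CPM untreated and 0.369, 0.271 and 0.309 CPM with SPARC, so that every SPARC library was far below every untreated one. Cbr2, a lung-type carbonyl reductase and a marker of alternatively activated and resident macrophages, stood at 33.3, 51.5 and 28.4 CPM untreated and 0.527, 1.18 and 1.34 with SPARC and fell by 5.21 ± 0.74 (adjusted p = 9.66e-04). Vsig4, the complement receptor of the immunoglobulin superfamily found on resident macrophages, fell by 3.89 ± 0.71 (adjusted p = 0.00334). Its levels were 209.6, 388 and 143 CPM against 10.6, 21.4 and 18 CPM, with all 3 SPARC libraries far below the lowest untreated one. For Gas6, the bridging ligand that joins phosphatidylserine on dying cells to the TAM receptors, the libraries stood at 119.8, 188 and 209 CPM untreated and 10.6, 9.48 and 22.5 with SPARC, and it fell by 3.60 ± 0.52.

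The secreted selenium carrier Sepp1 was the fall with the largest share of the library among these 20: it stood at 4103, 6269 and 4704 CPM untreated and 445, 529 and 413 CPM with SPARC, a change of −3.44 ± 0.34 (adjusted p = 1.73e-04). Nxpe5 changed by −4.19 ± 0.58, the GTPase-activating protein Arhgap19 by −4.17 ± 0.71 and the Ras exchange factor Rasgrp3 by −3.36 ± 0.84. Rasgrp3 missed the threshold without SPARC 2 (adjusted p = 0.051), without SPARC 3 (0.0512) and without both libraries numbered 3 (0.0839). The ABC transporter Abca9 changed by −3.35 ± 0.50, the lysosomal carrier Slc46a3 by −3.33 ± 0.31 and the endosomal sodium-proton exchanger Slc9a9 by −3.24 ± 0.34. Hpgds, which makes prostaglandin D2, changed by −3.62 ± 0.87 (adjusted p = 0.0125), and by −3.98 without both libraries numbered 3 (0.0591). It also missed the threshold without SPARC 1 (0.0543) and without SPARC 2 (0.0513). The inhibitory phosphatidylserine receptor Cd300a (−3.17 ± 0.44), the Rab3 interactor Rab3il1 (−3.20 ± 0.35) and the ubiquitin ligase Nedd4 (−3.13 ± 0.46) were called in every fit. The Golgi protein Fam198b (−3.23 ± 1.00, adjusted p = 0.0368) was not, since 8 of the 12 fits without 1 library lost it. Cd163, the haemoglobin-haptoglobin scavenger receptor, stood at 15.7, 14.6 and 27.9 CPM untreated and 1.93, 1.31 and 3.34 with SPARC (−3.14 ± 0.87, adjusted p = 0.0232). Its groups did not overlap, and its call was lost without SPARC 1 (0.0724), without SPARC 2 (0.0837), without untreated 3 (0.0606) and without both libraries numbered 3 (0.0816). Also among the 20 are the mitochondrial transcripts mt-Co3 and mt-Nd3, described further on.

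**Figure D2:**
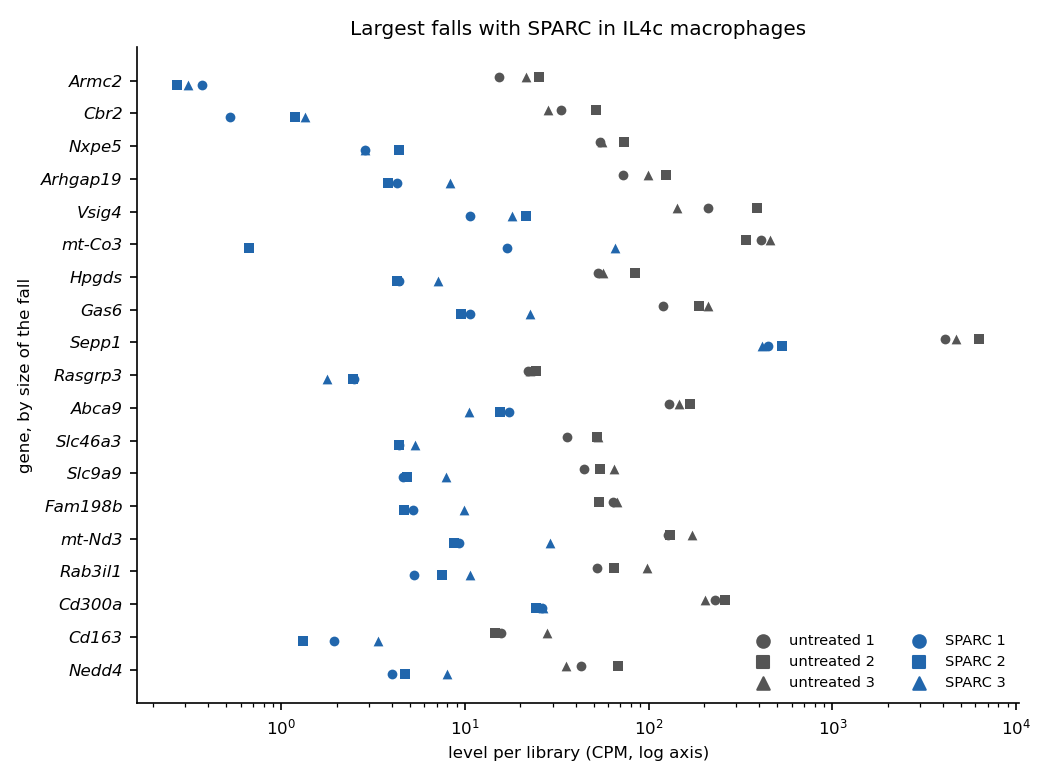
Level in each IL4c library (CPM, log axis) for 19 of the 20 genes with the largest falls, with untreated libraries in grey, SPARC libraries in blue and a symbol for each library number. The untreated and the SPARC points of each gene do not overlap, which the choice of these genes required.

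By difference in CPM, the largest falls were Ctsd, Psap, Lyz2, mt-Co1, Sepp1 and Ccl6. The first pair are the lysosomal protease cathepsin D (19352, 22852 and 25381 CPM untreated, 9765, 10417 and 13079 with SPARC, −1.02 ± 0.31, adjusted p = 0.032) and the sphingolipid activator precursor prosaposin (−0.91 ± 0.28, adjusted p = 0.0327). Both were within reach of the threshold: 9 of the 12 fits without 1 library lost each, and without both libraries numbered 3 the adjusted p was 0.134 for Ctsd and 0.144 for Psap. Lyz2, lysozyme, changed by −1.28 ± 0.34 and was lost without SPARC 1 (0.0764), SPARC 2 (0.0757), untreated 2 (0.0612) or untreated 3 (0.0694). Ccl6, a CC chemokine of macrophages, stood at 2204, 2047 and 3292 CPM untreated and 165, 225 and 779 with SPARC, and fell by 2.69 ± 0.58 (adjusted p = 0.00787).

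The 12 largest rises by the same rule are given next. Apol9a and Apol9b, interferon-inducible apolipoprotein L genes, are near-identical copies that share reads, so their separate values are uncertain. Together the 3 untreated libraries held 3 estimated counts of Apol9a against 3018 with SPARC, a ratio of 869.6 at the libraries' effective sizes with an exact 95% counting interval of 297 to 4219, and 10 counts of Apol9b against 4835, a ratio of 418 (227 to 872). The transcript U90926 had 4 counts against 2868, a ratio of 619.8 (242 to 2276); these intervals cover counting error only. Ccl5, a T cell and monocyte chemoattractant, stood at 3.41, 3.00 and 2.93 CPM untreated and 542, 1277 and 847 with SPARC (8.16 ± 0.67, adjusted p = 7.27e-05). Lcn2, the siderophore-binding lipocalin, went from 8.11, 6.63 and 4.10 to 1759.9, 1690.3 and 801 CPM (7.82 ± 1.26), and the acute-phase gene Saa1, which shares reads with a near-identical copy, rose by 7.87. The others were the interferon-stimulated Ifi44 (7.58 ± 0.62), Ifit3 (6.79 ± 0.53) and its near-identical neighbour Ifit3b (6.78 ± 0.68), the matrix protein Thbs4 (7.27 ± 0.90), the glutamate transporter Slc1a2 (6.81 ± 1.33) and Dgat2, which makes triglyceride (0.422, 0.514 and 0.320 CPM untreated, 63.4, 74.4 and 42.8 with SPARC). By difference in CPM, B2m (1.27 ± 0.18), H2-K1 (1.88 ± 0.25), Slc7a2 (1.44 ± 0.48), H2-D1 (0.94 ± 0.19), Lgals3bp (2.09 ± 0.31) and Irf7 (4.90 ± 0.35) rose most. Of these, the cationic amino acid transporter Slc7a2 (adjusted p = 0.0475) lost its call in 7 of 12 fits without 1 library and in the fit without both libraries numbered 3 (0.175).

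The promoters of 4 of these genes are shown as examples with and without a match to the motifs counted below: Apol9a and Apol9b are among the 3 largest rises, and Cbr2 and Vsig4 are among the 20 largest falls. RefSeq lists a promoter (250 bases before to 50 after the start, GRCm38.p6) for 24 of the 32 genes named by fold change. Each is written in the gene's own direction, with matches to any of the 4 motifs in capitals. They lie at chr15:77411031-77411330 (minus strand; the first of 2 starts listed), chr15:77728822-77729121 (plus; the first of 2), chr11:120731972-120732271 (minus) and chrX:96293389-96293688 (minus).
Apol9a: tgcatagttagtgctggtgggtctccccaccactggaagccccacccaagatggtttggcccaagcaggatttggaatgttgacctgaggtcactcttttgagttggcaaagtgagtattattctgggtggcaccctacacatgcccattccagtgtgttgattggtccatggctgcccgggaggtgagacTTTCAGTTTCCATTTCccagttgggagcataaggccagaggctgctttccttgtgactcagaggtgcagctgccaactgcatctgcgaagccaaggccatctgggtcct
Apol9b: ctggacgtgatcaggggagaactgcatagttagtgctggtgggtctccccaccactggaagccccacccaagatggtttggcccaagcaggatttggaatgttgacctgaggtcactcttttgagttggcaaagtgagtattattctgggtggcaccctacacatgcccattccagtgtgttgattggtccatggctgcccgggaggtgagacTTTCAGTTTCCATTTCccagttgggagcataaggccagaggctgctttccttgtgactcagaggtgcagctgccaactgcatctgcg
Cbr2: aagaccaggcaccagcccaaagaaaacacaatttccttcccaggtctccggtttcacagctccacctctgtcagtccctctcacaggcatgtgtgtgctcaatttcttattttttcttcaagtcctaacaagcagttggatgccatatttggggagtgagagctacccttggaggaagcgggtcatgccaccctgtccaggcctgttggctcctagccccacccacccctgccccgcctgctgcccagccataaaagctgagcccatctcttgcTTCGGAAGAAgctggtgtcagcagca
Vsig4: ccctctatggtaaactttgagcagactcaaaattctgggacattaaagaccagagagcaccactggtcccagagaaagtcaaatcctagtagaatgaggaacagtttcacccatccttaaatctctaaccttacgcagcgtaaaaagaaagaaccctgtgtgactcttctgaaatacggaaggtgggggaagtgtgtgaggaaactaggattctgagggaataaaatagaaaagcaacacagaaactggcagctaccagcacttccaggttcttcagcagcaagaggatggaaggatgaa
The same capital stretch stands in Apol9a and Apol9b, where it matches the interferon-stimulated response element core (GAAA, any 2 bases, GAAA) on the strand opposite to the one printed. The capitals of Cbr2 match the STAT6 motif (TTC, any 4 bases, GAA), and Vsig4 has no match to these letters in this window. Nor have the listed promoters of U90926 and Saa1, which also rose. Counted on both strands over all promoters, the interferon core was in 139 of 2184 promoters of genes that rose (6.36%), 37 of 1806 of genes that fell (2.05%) and 426 of all 13034 (3.27%). At 2-fold or more it was in 93 of 929 promoters of genes that rose and 21 of 610 of genes that fell (3.44%). The other motifs differed less: the STAT6 motif was in 5.77% of promoters of genes that rose, 5.70% of those that fell and 5.57% of all. The interferon-gamma activated site (TTC, any 3 bases, GAA) was in 7.65%, 6.42% and 6.94%, and the NF-kB motif in 0.687%, 0.443% and 0.483%. A match is a string of letters and not a binding site.

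Few genes of the alternatively activated state were called, in both directions. Of 31 tested, 3 rose and 3 fell, with a median change of −0.51 (over all genes −0.001); with the replicate block 5 rose and 14 fell. These counts are sensitive to single libraries: leaving out each of the 12 in turn gave 0 to 3 higher and 0 to 6 lower, the lowest count of falls without SPARC 1 and the highest without SPARC 3. Without both libraries numbered 3 there were 1 rise and 3 falls. Arg1, the arginase that defines the state, stood at 6841, 5721 and 2692 CPM untreated and 2968, 3121 and 1641 with SPARC, a change of −0.98 ± 0.44 that did not pass (adjusted p = 0.123, 0.0492 with the replicate block). Its SPARC libraries overlap the untreated ones because untreated 3 stood below SPARC 1 and SPARC 2, while each was lower than the untreated library of its own number. Mrc1, the mannose receptor, had 148, 139 and 649 CPM untreated and 25.7, 18.2 and 145 with SPARC (−2.31 ± 0.86, adjusted p = 0.0708). Its level differed with the library number as well as with SPARC: SPARC 3 lay within the untreated range, and the adjusted p was 0.00215 with the replicate block and 0.0074 without both libraries numbered 3, and DESeq2 (0.0089) and limma on log2(FPKM + 1) (0.0413) called it lower. Retnla (−0.28 ± 0.67, adjusted p = 0.795) and the chitinase-like Chil3 (−0.37 ± 0.57; 0.0347 with the replicate block) showed no change past the threshold.

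Egr2, an IL-4-inducible zinc finger factor, fell by 2.38 ± 0.60, and its size rested on SPARC 3, since it was −3.58 without that library; without SPARC 1 the call was lost (0.0624). The kinase Matk (−2.24 ± 0.64) and the beta-glucan receptor Clec7a (−1.41 ± 0.47, adjusted p = 0.0486) were called lower, but 4 and 9 of the 12 fits without 1 library lost them. Mgl2, a galactose-type lectin, went the other way from most of the list, with 21.1, 16.0 and 88.1 CPM untreated and 88.2, 118 and 455 with SPARC (2.40 ± 0.74, adjusted p = 0.0357). Both libraries numbered 3 were the highest of their group. Without SPARC 3 the change was 1.32 and not past the threshold, and 6 of the 12 fits without 1 library lost the call. Ccl22, a chemokine for regulatory and helper T cells, rose by 2.76 ± 0.92 (adjusted p = 0.0479), and 7 of the 12 fits lost it. Alox15 (−2.37 ± 1.36, adjusted p = 0.23; 0.00355 with the replicate block), the lipid-sensing receptor Pparg (−3.08 ± 1.20, 0.0834; 6.88e-05), Klf4 (−0.79 ± 0.36, 0.13; 0.00234) and the lectin Clec10a (−0.95 ± 0.33, 0.0557; 0.0393) did not pass edgeR's test over the 12 libraries without the block. Other fits called some of them: Pparg passed by DESeq2 (adjusted p = 0.00919) and on the 6 IL4c libraries alone (0.0445), and Clec10a by DESeq2 (0.0179), on those 6 alone (0.0179) and with a filter of 5 CPM (0.0469). Without both TG libraries numbered 1 the adjusted p was 0.0104 for Pparg, 0.012 for Clec10a and 0.0451 for Alox15.

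Identity genes of large resident peritoneal macrophages gave 1 rise and 2 falls of 28 tested, with a median of −0.10 (7 and 12 with the replicate block). The falls were Vsig4, above, and Tgfb2 (−2.26 ± 0.68), whose call 5 of the 12 fits lost. Without any one of those 5 libraries, all but untreated 3 of the IL4c set, Vsig4 was the 1 fall left. Tgfb2 was also lost with the replicate block on the 6 IL4c libraries alone (adjusted p = 0.117) and with no low-count filter (0.0645). The rise was Id1, from 0.454, 0.303 and 0.213 to 2.74, 2.37 and 0.926 CPM. Gata6, the lineage factor of these cells, stood at 46.2, 46.2 and 19.0 CPM untreated and 47.0, 45.0 and 21.2 with SPARC, a change of 0.03 ± 0.46 (adjusted p = 0.975). Its range within each group was wider than the difference between them. Prg4 (proteoglycan 4) stood at 558, 522 and 364 against 2947, 3149.9 and 1896 CPM (2.47 ± 1.29, adjusted p = 0.186; 3.17e-05 with the replicate block). Its IL4c groups did not overlap, and fitted on the 6 IL4c libraries alone, without the spread of the TG libraries, the adjusted p was 9.94e-04; it was 9.76e-05 without both TG libraries numbered 1.

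Transcription factors of macrophages fell more often than they rose: 15 of 40 fell and 5 rose, a median of −0.44 (20 and 11 with the replicate block). The count of falls was 7 without SPARC 1, 8 without SPARC 3, 9 without untreated 2 and 9 without both libraries numbered 3; rises numbered 5 to 8, with 8 without TG SPARC 1. Maf, a factor of mature tissue macrophages, stood at 442, 509.5 and 482 CPM untreated and 88.5, 108 and 97.0 CPM with SPARC, tightly grouped on both sides (−2.29 ± 0.22, adjusted p = 1.57e-04). Id3 (−1.73 ± 0.23), an inhibitor of helix-loop-helix factors, and Mef2a (−0.83 ± 0.11) fell, as did Rxra (−0.87 ± 0.12), the shared partner of nuclear receptors. Irf8, a factor of monocyte and macrophage development, stood at 118, 143 and 135 against 38.3, 50.1 and 64.2 CPM (−1.38 ± 0.26, adjusted p = 0.00389). Among the rises, Nr1h3, the liver X receptor alpha, went from 15.4, 15.2 and 15.9 to 68.1, 94.4 and 68.3 CPM (2.31 ± 0.28, adjusted p = 4.15e-04), and Cebpb (1.12 ± 0.19) and Nfe2l1 (0.89 ± 0.11) rose less.

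Genes for the uptake of dying cells include ligands that bind phosphatidylserine, the receptors that read them, and the machinery that closes the phagosome. Of 28 tested, 9 fell and 4 rose, a median of −0.45 (14 and 8 with the replicate block). Both ligands of the TAM receptor tyrosine kinases fell: Gas6, above, and Pros1, protein S, which fell by 2.09 ± 0.23 (adjusted p = 2.54e-04). Their receptors parted. Mertk stood at 304, 389.5 and 325 CPM untreated and 88.5, 133 and 112 with SPARC and fell by 1.61 ± 0.18 (adjusted p = 2.53e-04). Axl went from 5.13, 8.47 and 5.09 to 60.7, 98.3 and 31.5 CPM and rose by 3.35 ± 0.43 (adjusted p = 5.99e-04), with every SPARC library above every untreated one. The third receptor, Tyro3, was called higher (1.00 ± 0.31, adjusted p = 0.0356) at 0.195, 0.182 and 0.266 against 0.422, 0.444 and 0.437 CPM, and 10 of the 12 fits without 1 library lost it, as did DESeq2. Downstream, the engulfment adaptor Elmo1 fell (−0.80 ± 0.10). Stab1, a scavenger receptor that also binds phosphatidylserine and is known to take up SPARC, rose by 1.19 ± 0.25 (adjusted p = 0.00704). Abca1, which exports cholesterol, rose by 0.99 ± 0.22 (adjusted p = 0.00919; 0.0528 without both libraries numbered 3). Without that number the list had 8 falls and 2 rises.

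C-type lectin and scavenger receptors gave 5 falls and 5 rises of 26, a median of −0.48 (11 and 7 with the replicate block). Besides Cd163 and Clec7a, the lectin Cd209a fell from 25.8, 26.6 and 5.01 to 0.185, 0.247 and 0.334 CPM (−6.21 ± 0.98, adjusted p = 0.00166). Cd209a also marks dendritic cells and is itself part of the dendritic cell sum given above, so that sum is not separate evidence about it. Cd5l, a secreted scavenger protein of tissue macrophages, fell by 2.04 ± 0.43, and Scarb1, the high-density lipoprotein receptor, fell by 0.62 ± 0.13. The rises were Stab1, Mgl2, Clec5a (1.54 ± 0.35), the mycobacterial cord factor receptor Clec4e (2.70 ± 0.62; adjusted p = 0.0768 without both libraries numbered 3 and 0.0517 without untreated 2) and Olr1, the oxidised lipoprotein receptor (2.82 ± 0.87, adjusted p = 0.0357), which 6 of the 12 fits lost. The falls numbered 3 without SPARC 1, SPARC 2 or untreated 3 and 8 without SPARC 3, and the rises 3, 3 and 2 without SPARC 3, untreated 1 and untreated 2; 3 rose without both libraries numbered 3.

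Complement genes fell more often than they rose. Of 19 tested, 6 fell and 1 rose, with a median of −0.69 (9 and 4 with the replicate block). The complement receptor Vsig4 is described above. C1qb stood at 796, 1165 and 721 CPM untreated and 271, 427 and 229 with SPARC and fell by 1.53 ± 0.34 (adjusted p = 0.00804). C1qc, another chain of the same recognition protein, fell by 1.62 ± 0.41 (adjusted p = 0.0156), a call lost without SPARC 1 (0.0594), SPARC 3 (0.058), untreated 2 (0.0671) or both libraries numbered 3 (0.0558). Both anaphylatoxin C5a receptors fell, with C5ar2 at −2.10 ± 0.42 and C5ar1 at −0.69 ± 0.16. The rise was C2, the protease of the classical convertase (2.41 ± 0.52, adjusted p = 0.00749); 3 rose without TG untreated 1, and 2 without TG untreated 2 or TG untreated 3. C3 stood at 1.31 ± 0.69 (adjusted p = 0.192; 0.0224 with the replicate block, 0.00717 on the 6 IL4c libraries alone and 0.00113 without both TG libraries numbered 1).

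In coagulation and fibrinolysis, 4 of 17 rose and 3 fell, a median of 0.52 (8 and 6 with the replicate block). The anticoagulant genes did not move as one. Thbd, thrombomodulin, fell by 1.70 ± 0.25, and Pros1 fell as above, while Procr, the endothelial-type protein C receptor, rose from 4.58, 2.81 and 10.6 to 116, 159 and 261 CPM (4.89 ± 0.57). F3, tissue factor, was called at 1.27 ± 0.41 (adjusted p = 0.0424) in few fits, 9 of the 12 without 1 library losing it.

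Lysosomal genes fell in part. Of 48 tested, 12 fell and 6 rose, a median of −0.18 (19 and 12 with the replicate block). This is one of the least settled counts: 4 to 14 fell and 2 to 7 rose without single libraries, and 4 fell and none rose without both libraries numbered 3. Falls numbered 4 without SPARC 1, 5 without SPARC 2, SPARC 3, untreated 1 or untreated 2, 6 without TG SPARC 2, and 7 without untreated 3, TG SPARC 3 or TG untreated 2; rises numbered 3 without SPARC 1 or untreated 1 and 2 without untreated 2. The lysosomal phospholipase Pla2g15 stood at 227, 306 and 239 CPM untreated and 64.5, 91.6 and 65.2 with SPARC and fell by 1.8 ± 0.22 (adjusted p = 4.81e-04). Tfeb, the master regulator of lysosomal genes, fell by 1.28 ± 0.23 (adjusted p = 0.00308), the beta-galactosidase Glb1 fell by 1.16 ± 0.20 and the membrane protein Laptm4a fell by 0.54 ± 0.11. On the other side, the cholesterol-binding Npc2 rose by 0.88 ± 0.21, with an adjusted p of 0.0705 without both libraries numbered 3. Ctsz, a cathepsin, was at 1.16 ± 0.28 and Gaa, the acid alpha-glucosidase, at 0.46 ± 0.11, and 3 and 2 of the 12 fits lost those calls.

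Of 24 genes of cholesterol synthesis and uptake tested, 15 fell and none rose, with a median change of −0.84 against −0.001 over all genes. The count was 15 without both libraries numbered 3 and 13 to 17 without single libraries, and 17 fell and 2 rose with the replicate block. In the order of the pathway, Hmgcs1, which makes the precursor of mevalonate, stood at 78.2, 77.5 and 73.1 CPM untreated and 33.1, 30.9 and 34.3 with SPARC and fell by 1.22 ± 0.09 (adjusted p = 4.87e-05). Its 6 values fell into separate narrow ranges. The isomerase Idi1 fell by 1.96 ± 0.23, the squalene epoxidase Sqle fell by 0.97 ± 0.22 and the sterol-C4-methyl oxidase Msmo1 fell by 0.98 ± 0.11. The intracellular sterol carrier Stard4 fell by 1.82 ± 0.22 (adjusted p = 3.96e-04).

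Control genes of the list went the same way. Insig1, which holds the sterol sensor in the endoplasmic reticulum, stood at 94.8, 115 and 85.3 CPM untreated and 32.3, 27.6 and 27.8 with SPARC and fell by 1.75 ± 0.21. Srebf2, the factor that switches on the pathway, fell by 0.71 ± 0.18 (adjusted p = 0.0167), and 3 of the 12 fits without 1 library lost it: those without SPARC 2, untreated 1 or untreated 2.

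**Figure D3:**
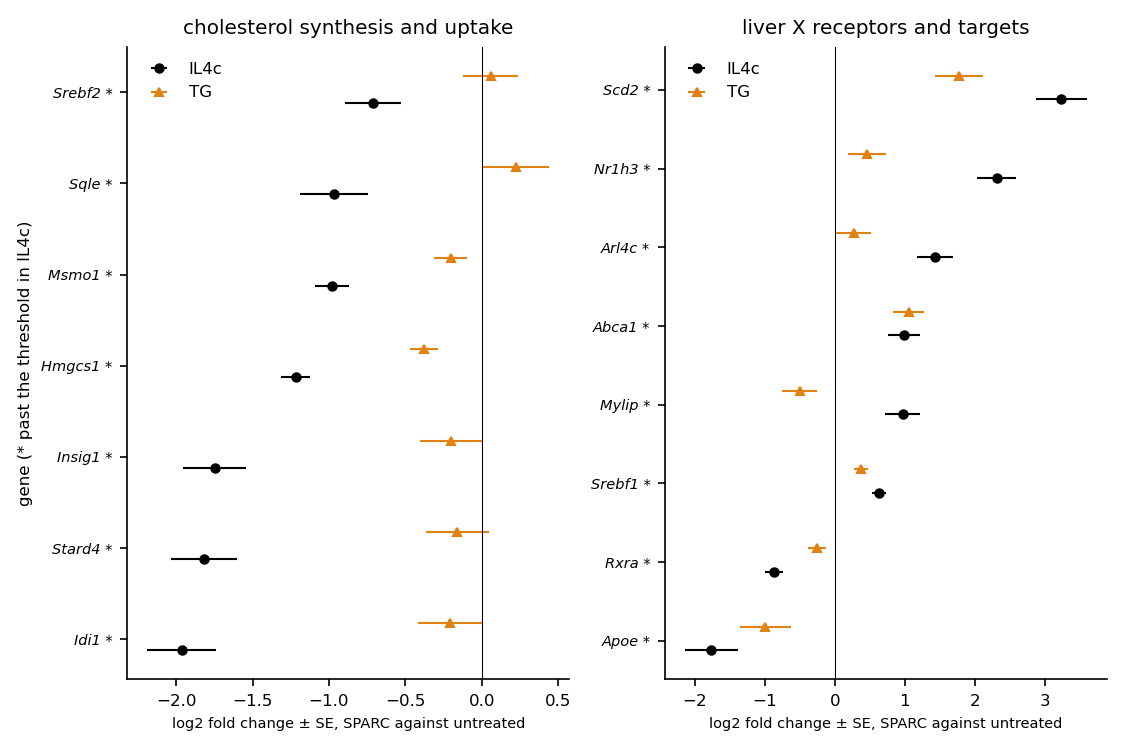
Log2 fold change of SPARC against untreated with its standard error (horizontal axis) for the genes of cholesterol synthesis and uptake (left) and of the liver X receptor list (right) that the text describes, in IL4c (black circles) and TG cells (orange triangles), with an asterisk for genes past the threshold in IL4c cells. The black points of the cholesterol genes shown all lie left of 0, from Srebf2 at −0.71 to Idi1 at −1.96, while 6 of the liver X receptor genes lie right of it and 2 left. The panels hold 7 of the 24 and 8 of the 16 genes tested, all past the threshold in IL4c cells, a choice that fixed these sides. Of the cholesterol genes not shown, Mvd (0.57) and Acat2 (0.38) changed upward without passing.

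Liver X receptors sense oxysterols and turn on cholesterol efflux and fatty acid synthesis. Of the 2 receptors and their targets, 16 genes tested, 6 rose and 2 fell, a median of 0.80 (10 and 2 with the replicate block). Nr1h3, one of the receptors, and Abca1 are given above. Mylip, a ubiquitin ligase, rose by 0.97 ± 0.25 (adjusted p = 0.0174), with the call lost without SPARC 2, untreated 1 or untreated 2. Scd2, a stearoyl-CoA desaturase, stood at 34.0, 23.5 and 26.3 CPM untreated and 287, 293 and 211 with SPARC and rose by 3.24 ± 0.36 (adjusted p = 2.94e-04). Srebf1, the lipogenic factor, rose by 0.63 ± 0.10 and the small GTPase Arl4c by 1.44 ± 0.26. The falls were Rxra, the partner receptor, and Apoe, the secreted apolipoprotein E, which stood at 471, 1306 and 695 CPM untreated and 286, 288 and 154 with SPARC (−1.76 ± 0.38, adjusted p = 0.00698). Untreated 2 held the highest Apoe level, and no SPARC library reached the lowest untreated one.

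Fatty acid oxidation enzymes fell in 13 of 29 cases and rose in 2, a median of −0.26 (15 and 3 with the replicate block). Between 9 and 16 fell without single libraries, and 9 without both numbered 3. The changes were small for most members. Cpt1a, which commits fatty acids to the mitochondrion, stood at 207, 232 and 207 CPM untreated and 88.6, 106 and 128 with SPARC and fell by 1.00 ± 0.13 (adjusted p = 6.11e-04). The medium-chain dehydrogenase Acadm fell by 0.50 ± 0.06, and the thiolases Acaa2 (−1.20 ± 0.12) and Hadhb (−0.70 ± 0.10) fell too. Eci1 (0.48 ± 0.09) and the peroxisomal thiolase Acaa1a (0.49 ± 0.11) rose.

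Lipid storage and eicosanoid genes gave 8 rises and 7 falls of 30 (12 and 12 with the replicate block). Single libraries moved these counts: 5 rose without untreated 2, and 2, 3, 4 and 4 fell without SPARC 1, SPARC 2, SPARC 3 and untreated 2, and 2 fell without both libraries numbered 3. Dgat2, named among the largest rises, was joined by the acyl-CoA synthetases Acsl1 (2.64 ± 0.40), Acsl5 (1.44 ± 0.16) and Acsl4 (0.80 ± 0.09). Falling members included Pnpla2, the triglyceride lipase (−1.04 ± 0.16), and 2 synthases of prostanoids, Tbxas1 for thromboxane (−1.26 ± 0.18) and Hpgds.

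In the tricarboxylic acid cycle and its neighbours, 5 of 26 fell and 3 rose, a median of 0.09 (9 and 8 with the replicate block). The isocitrate dehydrogenases that yield NADPH fell: Idh1 stood at 773, 852 and 821 CPM untreated and 306, 357 and 323 with SPARC (−1.31 ± 0.10, adjusted p = 4.66e-05), and Idh2 changed by −0.80 ± 0.09. Acly, which makes cytosolic acetyl-CoA from citrate, fell by 0.89 ± 0.21. Irg1, which makes itaconate from the aconitate of the cycle, rose by 5.09 ± 0.65 (adjusted p = 5.61e-04) from 31.1, 11.7 and 15.0 to 544, 620.0 and 801 CPM. Pyruvate carboxylase, Pcx, was called at 2.34 ± 0.68, lost in 3 of the 12 fits without 1 library and without both libraries numbered 3; of the list, 1 gene rose without SPARC 3, untreated 1 or untreated 2, and 6 without untreated 3. Glycolytic genes went up, 13 of 27 with 2 falls and a median of 0.82 (20 and 3 with the replicate block): the hexokinases Hk1 (0.67 ± 0.10) and Hk2 (1.29 ± 0.19) and the lactate exporter Slc16a1 (1.39 ± 0.24) were among them. Pfkfb2, a bifunctional regulator of the pathway, fell by 0.60 ± 0.10, and Ldhb was called at −1.3 ± 0.34; the latter was lost in 4 of the 12 fits, which left 1 fall, and 1 fell without both libraries numbered 3.

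Respiratory chain transcripts differed by the genome that encodes them. Of the 13 mRNAs encoded in mitochondrial DNA, 11 fell and none rose, with a median of −2.59, and 9 to 12 fell without single libraries, 11 without both numbered 3 and 12 with the replicate block. Summed, the 13 stood at 15014, 16896 and 22458 CPM in the untreated libraries, which is 1.47 to 2.20% of their counts, and at 4183, 3604 and 8164 CPM with SPARC, 0.345 to 0.800%. Every SPARC library was below the lowest untreated one, and SPARC 3 was the highest of its group. mt-Cytb, of complex III, changed by −2.77 ± 0.51 (adjusted p = 0.00367), mt-Nd4, of complex I, by −2.63 ± 0.49 (0.00367) and mt-Atp6, of ATP synthase, by −2.59 ± 0.49 (0.00425). mt-Co1, of complex IV, stood at 7808, 9072 and 11911 CPM untreated and 3258, 2882 and 5512 with SPARC (−1.3 ± 0.30, adjusted p = 0.0107). mt-Co3 (−3.85 ± 1.28, adjusted p = 0.0482) lost its call in 10 of the 12 fits without 1 library, with adjusted p up to 0.139, and mt-Nd4l (−2.98 ± 0.86) in 5. mt-Nd3, of complex I, changed by −3.20 ± 0.62 (adjusted p = 0.00458). The members that did not pass were mt-Nd6, the one read from the opposite strand (−0.60 ± 0.28, adjusted p = 0.145; 0.01 with the replicate block and 0.0103 without both libraries numbered 3), and mt-Co2 (−2.58 ± 1.55, adjusted p = 0.251), at 9.31, 0 and 4.60 CPM in the SPARC libraries.

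The 2 ribosomal RNAs of the same genome did not pass edgeR's test over the 12 libraries. They summed to 1506, 1476 and 2207 CPM untreated and 2140, 1846 and 2923 with SPARC, with mt-Rnr1 at 1.08 ± 0.42 (adjusted p = 0.0854) and mt-Rnr2 at −0.10 ± 0.20 (0.76). mt-Rnr1, the small ribosomal RNA, stood at 526, 469 and 754 CPM untreated and 1054, 921 and 1717 with SPARC, higher with SPARC at each library number and in every SPARC library than in any untreated one. Other fits called it higher: DESeq2 (adjusted p = 0.0334), the 6 IL4c libraries alone (0.0296; 9.83e-05 with the replicate block) and the fit without both TG libraries numbered 1 (0.00859), while the block over all 12 did not (0.0855). A chromosome copy of a mitochondrial gene can take reads from it, so the level of a single transcript such as mt-Co2 is uncertain. The labels name the molecule as poly(A) RNA. Among 45 nuclear-encoded oxidative phosphorylation genes, 6 rose and 2 fell, a median of 0.13 (18 and 2 with the replicate block): Cycs, cytochrome c, rose by 1.13 ± 0.21, the complex III subunit Uqcrq by 0.81 ± 0.16 and the complex I subunit Ndufa5 by 0.60 ± 0.10. The falls were Ndufa4 (−0.66 ± 0.17) and Ndufs8 (−0.61 ± 0.19), which 3 and 6 of the 12 fits lost. Ndufs8 was also lost on the 6 IL4c libraries alone (adjusted p = 0.0865) and with total-count scaling (0.0546). Rises numbered 3 without SPARC 3, untreated 1 or untreated 2, 16 without untreated 3 and 12 without both libraries numbered 3.

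**Figure D4:**
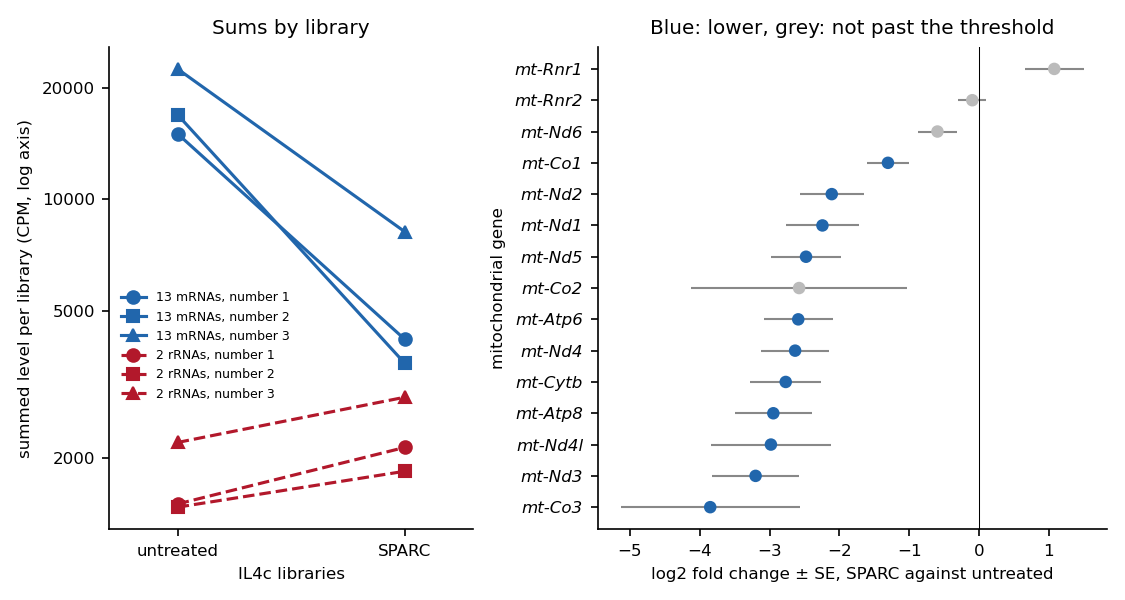
Left, summed level of the 13 mitochondrial mRNAs (solid) and of the 2 mitochondrial ribosomal RNAs (dashed) in each library (CPM, log axis), with lines joining libraries of the same number; right, log2 fold change with its standard error for each transcript, blue where it fell. The mRNA lines all run down, from 15014 or more to 8164 CPM or less, and the ribosomal RNA lines run up.

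Receptors for chemoattractants, lipids and nucleotides gave 10 falls and 9 rises of 39, a median of 0.09 (13 and 14 with the replicate block; 6 to 13 and 4 to 10 without single libraries, the lowest without SPARC 1 or untreated 2 for falls and without SPARC 2, untreated 2 or untreated 3 for rises). Rises numbered 5 without SPARC 1, and without both libraries numbered 3 there were 5 falls and 4 rises. The lysophosphatidic acid receptors Lpar5 (−1.36 ± 0.16) and Lpar6 (−1.5 ± 0.24) fell. Ccr2, the receptor for Ccl2, fell by 1.73 ± 0.39 (adjusted p = 0.00939). Its call was lost without both libraries numbered 3 (0.0634) and by limma on log2(FPKM + 1) (0.0858). Gpr84, a receptor for medium-chain fatty acids, went from 4.28, 2.87 and 3.43 to 73.4, 76.0 and 117 CPM (4.65 ± 1.07, adjusted p = 0.0101; 0.0679 without number 3). The formyl peptide receptor Fpr2 (4.41 ± 1.05), lost without untreated 2 or both libraries numbered 3, the ATP and UTP receptor P2ry2 (1.5 ± 0.22) and the prostaglandin E2 receptor Ptger2 (1.13 ± 0.21) rose.

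Fc receptors and integrins rose in 6 of 22 cases and fell in 1 (11 and 6 with the replicate block), a median of 0.32. Fcgr1, the high-affinity IgG receptor, stood at 5.84, 12 and 6.92 CPM untreated and 108, 268 and 101 with SPARC (4.26 ± 0.48, adjusted p = 3.01e-04), and its signalling chain Fcer1g rose by 0.73 ± 0.09. The integrin chains Itgal (3.10 ± 0.30) and Itgb7 (2.24 ± 0.42) rose, while Fcgrt, the recycling receptor for IgG, fell by 2.03 ± 0.42 (adjusted p = 0.00639; 0.0576 without both libraries numbered 3). Falls numbered 2 to 4 without SPARC 2, untreated 3, TG SPARC 1 or any TG untreated library, and none fell without both libraries numbered 3.

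Pattern recognition genes gave 10 rises and 3 falls of 32, a median of 0.04 (12 and 6 with the replicate block). Tlr3, a sensor of double-stranded RNA, rose by 1.17 ± 0.20, as did Tbk1 (0.79 ± 0.08) and Traf3 (1.11 ± 0.15) of its signalling path. Tlr8 (−1.06 ± 0.21) and the kinase Irak4 (−0.49 ± 0.10) fell. Tlr4, the endotoxin receptor, stood at 198, 185 and 172 CPM untreated and 169, 173 and 157 with SPARC, a change of −0.15 ± 0.12 (adjusted p = 0.377). Sparc itself was at 0.811, 0.484 and 2.18 CPM untreated and 0.607, 0.888 and 2.11 with SPARC protein (0.04 ± 1.18), and Ifnb1, interferon beta, had at most 1 count in a library and was not tested.

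Immediate-early and AP-1 genes gave 5 rises and 4 falls of 24, a median of −0.11 (7 and 8 with the replicate block). The MAP kinase phosphatases Dusp4 (4.00 ± 0.47) and Dusp6 (2.42 ± 0.37) rose. Nr4a1, an orphan nuclear receptor known to restrain inflammation in macrophages, fell by 3.42 ± 0.72 (adjusted p = 0.00691), from 16.3, 14.1 and 4.07 to 1.29, 0.938 and 0.977 CPM. Myc was called at −0.68 ± 0.16 (adjusted p = 0.0117; 0.107 without both libraries numbered 3).

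Among cytokine, chemokine and feedback genes of NF-kB, 20 of 40 rose and none fell, a median of 1.85 (29 with the replicate block, 13 without untreated 2 and 12 without both libraries numbered 3). Ccl7, a monocyte chemoattractant, stood at 4.48, 2.57 and 1.62 CPM untreated and 54.0, 73.3 and 178 with SPARC (5.14 ± 0.63). Tnf (2.03 ± 0.44, adjusted p = 0.00751) was at 0.0607 without number 3, where its change was 1.3. All 40 interferon-stimulated effectors rose, a median of 3.53, such as the oligoadenylate synthetase Oas1a (2.65 ± 0.14) and Ifit1, which binds viral RNA (6.62 ± 0.36). All 21 MHC class I presentation genes rose as well, a median of 1.88, with the non-classical H2-Q4 at 2.84 ± 0.23; H2-Q and H2-T genes are close copies and their separate values are uncertain. None of 14 MHC class II presentation genes passed edgeR's test over the 12 libraries without the block (median −0.13). In that fit 0 of the 14 had an unadjusted p under 0.05, and 0 passed by DESeq2 or by limma on log2(FPKM + 1). With the replicate block 3 were lower and 2 higher, and on the 6 IL4c libraries alone 3 were lower and 1 higher. Without untreated 3 or both libraries numbered 3, 1 was higher, and without TG SPARC 1 or TG untreated 1, 1 was lower. Costimulatory and checkpoint ligands rose in 5 cases and fell in 4 of 20 (9 and 6 with the replicate block), with the "do not eat me" signal Cd47 (1.00 ± 0.15) and Lgals9 (1.29 ± 0.21) higher and Vsir (−1.47 ± 0.18) and Cd48 (−1.12 ± 0.12) lower.

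**Figure D5:**
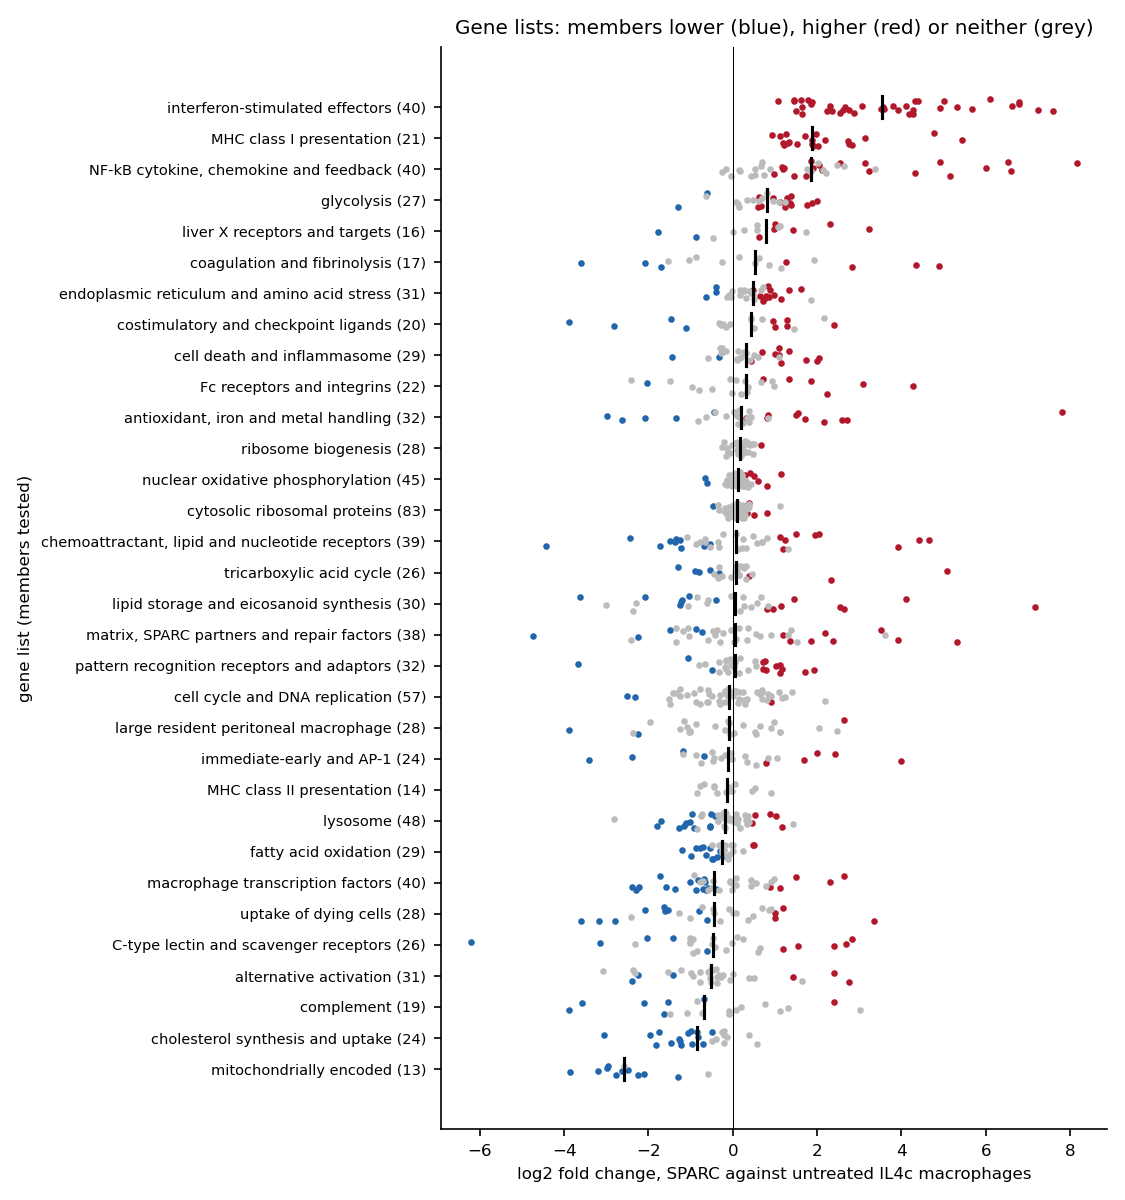
Log2 fold change of each tested member of each gene list (horizontal axis) in the IL4c libraries, with members that rose in red, members that fell in blue, the others in grey and the list's median as a black bar, the lists sorted by it and the number tested in brackets. The 40 interferon and 21 MHC class I points are all red, the 13 mitochondrial and 24 cholesterol genes hold no red point, and most lists hold both colours.

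Cell death genes gave 10 rises and 3 falls of 29, a median of 0.33 (16 and 5 with the replicate block, 6 and 1 without both libraries numbered 3). Mlkl, which ruptures the membrane in necroptosis, rose by 2.05 ± 0.20, the inflammatory caspase Casp4 by 1.75 ± 0.19 and the outer-membrane pore protein Bak1 by 1.15 ± 0.16. The pro-apoptotic Bcl2l11 fell by 1.44 ± 0.27, and this was the 1 fall left without any one of 8 libraries (all but untreated 1, untreated 3, TG SPARC 1 and TG untreated 1), where Casp9 (−0.32 ± 0.09) and Ripk1 (−0.26 ± 0.08) lost their calls. Antioxidant and iron genes rose in 10 cases of 32 and fell in 5, a median of 0.20 (13 and 8 with the replicate block, 5 and 6 without both libraries numbered 3). Gpx3, the secreted glutathione peroxidase, stood at 10.6, 18.7 and 23.5 CPM untreated and 1.77, 1.43 and 3.45 with SPARC and fell by 2.99 ± 0.40; like Sepp1 it is a selenoprotein. Trf, transferrin, fell by 1.35 ± 0.22. The iron exporter Slc40a1 (−2.62 ± 0.83) and the transferrin receptor Tfrc (−2.07 ± 0.66) were called lower, calls that were lost in 8 and 9 of 12 fits, and 2 or 3 genes fell without any IL4c library but SPARC 3, and 2 without TG SPARC 2, TG SPARC 3 or TG untreated 2. Sod2, the mitochondrial superoxide dismutase, rose by 2.59 ± 0.44 and the peroxiredoxin Prdx5 by 1.51 ± 0.24.

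Endoplasmic reticulum and amino acid stress genes rose in 12 of 31 cases and fell in 3, a median of 0.48 (18 and 3 with the replicate block); rises numbered 7 without SPARC 3, 6 without untreated 1, 5 without untreated 2 and 6 without both libraries numbered 3, and 1 gene fell without SPARC 2, SPARC 3, untreated 1, untreated 2 or both libraries numbered 3. The folate enzyme Mthfd2 rose by 1.33 ± 0.21, the chaperone cofactor Dnajb11 by 0.83 ± 0.12 and the stress factor Ddit3 by 1.63 ± 0.34 (adjusted p = 0.0061; 0.0662 without number 3). Atf6, a sensor of unfolded protein, fell by 0.64 ± 0.12. In the matrix and repair list, which holds known partners of SPARC, 8 of 38 rose and 5 fell, a median of 0.05 (12 and 14 with the replicate block; 3 fell without SPARC 1 or untreated 2). Timp1 rose from 3.50, 4.51 and 11 to 209.5, 318 and 232 CPM (5.31 ± 0.46) while Timp2, a second inhibitor of metalloproteinases, fell from 1289.8, 1539.8 and 1367 to 469, 533 and 503 (−1.48 ± 0.22). The membrane metalloproteinase Mmp14 (2.37 ± 0.14) and Itga5, of the fibronectin receptor (1.85 ± 0.35), rose. The growth factor Pdgfc (−4.75 ± 0.92) and the TGF-beta receptor chain Tgfbr2 (−0.88 ± 0.13) fell.

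Cell cycle genes mostly did not pass: 2 of 57 fell and 1 rose, a median of −0.09 (19 and 8 with the replicate block, 8 falls without SPARC 3, and 4 and 2 without both libraries numbered 3). Cenpa, the centromeric histone, fell by 2.50 ± 0.40 and the cyclin Ccnd1 fell by 2.32 ± 0.53, and E2f1 rose by 0.91 ± 0.19; 2 to 4 rose without SPARC 3, untreated 3 or any of 5 TG libraries. Mki67, the proliferation marker, stood at 59.3, 63.9 and 111 CPM untreated and 51.7, 51.2 and 113 with SPARC (−0.12 ± 0.78, adjusted p = 0.928). Cytosolic ribosomal proteins gave 4 rises and 1 fall of 83, a median of 0.10 (17 and 3 with the replicate block; 2 rises without SPARC 2, untreated 1 or untreated 2, 13 without TG untreated 1, and no fall without both libraries numbered 3), of which Rpl24 rose by 0.81 ± 0.14; ribosomal protein genes share reads with pseudogenes. Of 28 ribosome biogenesis genes, Noc4l alone passed (0.67 ± 0.13); without SPARC 2 there were 2 rises, and without TG SPARC 1 or TG untreated 1 there were 3.

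The IL4c response was set beside that of TG macrophages, whose libraries it does not share. In TG cells 1025 genes rose (6.73%) and 689 fell (4.52%). Of the genes that rose in IL4c cells 835 also rose in TG cells (36.3% of the IL4c and 81.5% of the TG calls), 556 fell in both (28.7% and 80.7%), and none was called in opposite directions. The difference between the responses was tested itself. With edgeR over the 12 libraries without the block, no gene passed in either direction (smallest adjusted p = 0.0616). At an unadjusted p under 0.05 there were 1612 genes (10.6%). DESeq2 called 171 higher and 193 lower, and limma on log2(FPKM + 1) 15 and 1. Without both TG libraries numbered 1, edgeR called 358 and 478. The replicate block called 228 higher (1.5%) and 244 lower (1.6%). Nothing is called particular to IL4c macrophages on this basis. The cholesterol list had the most such calls for its size: 11 of 24 genes had a lower response in IL4c than in TG cells with the replicate block, and its TG median was 0.04, with no rise and 1 fall. Hmgcs1 changed by −1.22 ± 0.09 in IL4c and −0.38 in TG cells (adjusted p of the difference 0.147 without and 0.0272 with the block). Idi1 stood at −1.96 and −0.21 (0.147 and 0.0149).

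Mertk changed by −1.61 in IL4c and −0.54 in TG cells (adjusted p of the difference 0.175 without and 0.0328 with the replicate block), and Axl by 3.35 and 0.28 (0.147 and 0.0211). Fcgr1 changed by 4.26 and 1.10 (0.159 and 0.00114). For Arg1 the responses had opposite signs, −0.98 in IL4c and 2.55 in TG cells (0.147 and 0.0225), and the IL4c value did not pass its own test. The mitochondrial mRNAs had a TG median of −0.65 with no call, and the block called a lower IL4c response for 5 of 13. The interferon effectors rose in all 40 cases in both settings, with a TG median of 2.47, and the block called a higher IL4c response for 10.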

How the data were processed

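Poly(A) RNA of 6 IL4c and 6 TG libraries was used. Reads were processed with CASAVA, bcl2fastq 1.8.4, STAR and RSEM, per the submitters' processing notes; no build, annotation or strand setting is given in the sources used here. The authors deposited expected counts and FPKM values per gene. Of the expected counts 7.97% were not whole, and they were rounded. Gene identifiers matched GENCODE M21 without version in 98.9% of cases. Gene types were those deposited with the counts. R 4.3.3, edgeR 4.0.16, limma 3.58.1 and DESeq2 1.42.0 were used, with Python 3.11.15 and pandas 2.3.3 for tables.

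The 15232 of 47729 genes that passed filterByExpr (minimum count 10) were scaled by TMM and tested by edgeR's quasi-likelihood test over all 12 libraries in 4 groups, which share 1 estimate of the spread (common biological coefficient of variation 0.308, 8 residual degrees of freedom); the contrast was the 3 IL4c SPARC against the 3 IL4c untreated libraries, and p-values were adjusted by Benjamini and Hochberg. Standard errors were taken as the size of the log2 fold change over the root of the F statistic. CPM values use the TMM sizes; CPM is not per length and compares libraries, not genes. Counts of the 12 libraries differed by more than sampling noise between replicates. A chi-square per degree of freedom between 2 libraries of a group was 265 to 399 for TG pairs with a library numbered 1. It was 20.6 and 10.6 for the other TG pairs, and 23.8 to 117 for IL4c pairs.

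Same-numbered IL4c libraries deviated together (0.412, 0.342 and 0.610, against −0.445 to 0.190 for unlike numbers), as did TG libraries (0.735, 0.599 and 0.533), so the numbers were treated as pairs in the replicate block; the labels give only the shared numbers. Alternatives were other scalings, filters, the IL4c libraries alone, DESeq2, limma on log2(FPKM + 1) and log2(FPKM + 0.1), and leaving out libraries. Genes named are the 20 largest falls and 12 largest rises at a mean of at least 10 CPM without overlap, the 6 largest falls and rises by CPM, and up to 4 members per list and direction by p; a few others, such as Gm28439, Dcn, Insig1 and Mylip, were added after seeing their values, and some genes the rule selects are not reported here. The 32 gene lists, the 11 marker lists and the members were chosen with earlier results of these data known. The fitting was tested on simulated data.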

Additional observations from a re-analysis of the deposited data

How the results depend on the processing

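The naming rule, with the genes added to the text after seeing their values, gave 226 genes past the threshold. Of these, 168 kept the call in every alternative, 58 lost it in at least 1 and none reversed. List counts stayed within 1.5 times in 1761 of 2150 cases. On log2(FPKM + 1), changes of genes with low levels, such as Apol9a, Armc2, Dgat2 and Pdgfc, were over 1.5 times smaller. Fewer genes were called at low levels. In the lowest of 5 equal bins of level 6.76% and 6.63% were called higher and lower, against 18.8% and 19.9% in the highest. The part of sequencing depth in this was not tested.

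Genes higher and lower in IL4c cells (2301 and 1936) numbered 3474 and 3406 with the replicate block, 3868 and 3477 with the replicate block over the 6 IL4c libraries alone, and 1004 and 729 at 2-fold or more. Without both TG libraries numbered 1, 3145 were lower (3362 higher), and without both IL4c libraries numbered 3, 1128 were lower. Leaving out 1 library gave 1407 to 2789 higher and 1100 to 2389 lower. The replicate block also changed calls given beside Arg1, Mrc1, Alox15, Pparg, Klf4, Clec10a, Chil3, Prg4, C3 and mt-Nd6, and of the called list members it lost Tlr5.

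For the difference of the IL4c and TG responses (0 and 0), the counts higher and lower were 228 and 244 with the replicate block, 171 and 193 by DESeq2, 2 and 0 with total-count scaling, 2 and 0 with no low-count filter, 2 and 1 with a filter of 5 CPM, 15 and 1 on log2(FPKM + 1), 3 and 0 on log2(FPKM + 0.1), 32 and 6 on log2(FPKM + 1) with no filter, 1 and 0 without both IL4c libraries numbered 3, 358 and 478 without both TG libraries numbered 1, and 0 to 117 and 0 to 161 without 1 library.

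Sign changes were seen only in genes not past the threshold. Gata6 was at −0.14, −0.12 and −0.29 without SPARC 1, SPARC 2 and untreated 3 (range without 1 library −0.29 to 0.33), and Mki67 at 0.08, 0.08 and 0.23 (−0.59 to 0.23). Sparc was at −0.015 on log2(FPKM + 0.1), −0.023 on log2(FPKM + 1) with and without the filter, and −0.63, −0.16 and −0.33 without SPARC 3, untreated 1 and untreated 2 (−0.63 to 0.90). mt-Rnr2 was at 0.0036, 0.11 and 0.035 without SPARC 2, untreated 3 and both libraries numbered 3 (−0.20 to 0.11). The cause of these changes was not tested.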
